A study of Mus musculus with 8 samples.

Results

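The 36 genes described here act in the making and repair of the DNA double-strand breaks of meiosis and in the turning of some of these breaks into crossovers. They were chosen by name and not by a measured value, though with earlier results of these data known. Each name was matched to 1 row of the 55357 genes in the deposited table. Of these 36, 8 act in break formation and hotspot choice, 10 in strand invasion, 6 in the checkpoint and chromosome axis, and 12 in crossover formation and resolution. All 36 were among the 20187 genes tested, those that reached a TPM of 1 in any sample, where TPM (transcripts-per-million) is a level corrected for gene length and library depth.

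RNA was sequenced from germ cells of C57BL/6 male pups killed at 15 days after birth. The 4 control samples were of genotype *Mgat2*[F/F], with both alleles floxed and no Cre. The 4 *Mgat2* cKO samples were *Mgat2*[F/F]:*Stra8*-iCre, with the same floxed alleles and a Cre transgene driven by the *Stra8* promoter, which is active in spermatogonia and leaves the somatic cells of the testis with an intact gene. MGAT2 is a Golgi enzyme that adds the second GlcNAc branch on the way to complex N-glycans. The study weighed 1 pup for each sample, so each library is 1 animal, and samples are numbered 1 to 4 within each genotype.

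In meiosis, SPO11 and its partners cut DNA at sites that PRDM9 marks in the mouse. The ends are cut back, and recombinases, among them DMC1, carry the single strands into the homologous chromosome with the help of BRCA2 and other mediators. Kinases of the ATM family and the HORMAD proteins of the chromosome axis watch over this repair, and a minority of the intermediates are bound by MSH4 and MSH5 and cut as crossovers by a nuclease that holds MLH3. In the first wave of spermatogenesis in a juvenile testis, spermatocytes pass through leptotene and zygotene and then enter pachytene.

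Total expected counts, the read numbers that RSEM assigned to genes, ran from 12584726 to 15907505 per sample, and 3 counts, taken as the least that a library can show, were worth 0.189 to 0.238 counts-per-million (CPM). Each member had more than 10 counts in every sample, from 53 for *Rnf212* to 10302 for *Atr*. *Mgat2* itself measured 56.4 ± 16.9 CPM in controls and 27.2 ± 10.8 CPM in cKO samples (SD, n = 4). Its ranges overlapped because control 2 had 31.8 CPM while cKO 1 had 35.3 CPM and cKO 3 had 37.6 CPM. Its log2 fold change was -1.05, and the targeted gene did not pass the edgeR test used below (adjusted p = 0.47). Markers of Sertoli cells, the somatic cells that nurse the germ cells, were plentiful in these germ cell preparations: the 10 markers summed to between 8999.2 and 11224.5 TPM in controls and between 9666.3 and 12103.5 TPM in cKO samples, and 0 of 10 passed the test. The 9 Leydig and interstitial markers summed to 93.3 to 170 TPM and 132 to 181 TPM, respectively, with none at 0. The 9 peritubular, endothelial and immune markers summed to 309 to 428 TPM and 288 to 548 TPM. The 8 spermatid markers summed to 19.6 to 57.2 TPM in controls and 16.4 to 26.2 TPM in cKO samples. Among them *Prm1* and *Tnp2* were at 0 in all samples, and *Dbil5* was the highest, with a mean of 15.9 TPM. Replicate 1 of each genotype stood apart from the others in the summed level of the 12 markers of pachytene and later spermatocytes, which was 3320.3 TPM in control 1 against 1100.7 to 1758.3 TPM in the other controls, and 1128.5 TPM in cKO 1 against 591 to 622 TPM in the other cKO samples. Of these 12 markers, 11 had a negative log2 fold change of cKO over control (median -1.23), and 1, *Adad2*, passed the test. The study had already reported *Adad2* and *Piwil1*, both on this list, as lower in cKO in these same samples. The list is therefore not independent of these data. In RNA from mixed cells, fewer cells of a type and less RNA per cell cannot be told apart.

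The members spanned a wide range of levels. Their mean TPM over the 8 samples ran from 3.95 for *Mei4* to 210 for *Hormad1*, with a median of 30.6, and 31 of the 36 lay between 10 and 100. The 4 members above 100 TPM were *Hormad1*, an axis protein, *Mdc1* (167 TPM), an adaptor that binds phosphorylated H2AX, *Zcwpw1* (142 TPM), a reader of PRDM9 marks, and *Atr* (119 TPM), a checkpoint kinase. *Hormad1* had 177, 209, 285 and 193 TPM in controls 1 to 4 and 207, 205, 193 and 209 TPM in cKO samples 1 to 4, so that control 3 alone exceeded the range of the other 7 samples at the top. *Mei4* had 3.35, 3.38, 5.15 and 3.01 TPM in controls and 5.04, 4.17, 4.03 and 3.44 TPM in cKO samples, with full overlap. Summed over the 36 members, the level was 1594.9 to 1912.9 TPM in controls and 1516.6 to 1737.2 TPM in cKO samples. This was well below the summed Sertoli markers in every library, but most of that sum came from *Defb19* and *Clu*, with means of 4701.3 and 4255.3 TPM.

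**Figure D1:**
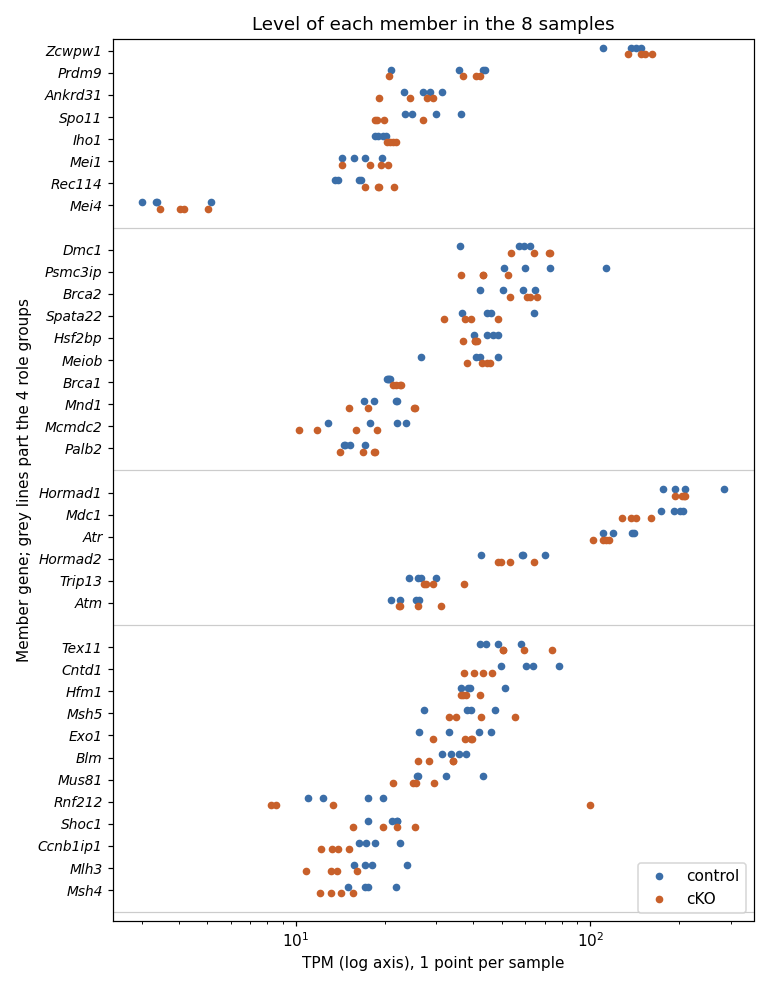
TPM of each of the 36 members in the 4 control (blue) and 4 cKO (orange) samples on a log axis, sorted by mean within the 4 role groups. *Hormad1*, *Mdc1*, *Zcwpw1* and *Atr* lie above 100 TPM in the mean, *Mei4* is the lowest at 3.95 TPM, and the lone point of *Rnf212* at 99.9 TPM is cKO 4.

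Whether loss of *Mgat2* changed these transcripts was asked with edgeR's quasi-likelihood test over all 8 samples, with Benjamini-Hochberg adjustment over the 20187 genes and a threshold of 0.05. No member passed it (0 of 36, smallest adjusted p = 0.24), where 0.0396% of all genes tested did, all 8 of them lower in cKO. At an unadjusted p under 0.05, 8 members (22.2%) had lower values in cKO samples, against 6.28% of all genes. The 8 were *Mdc1*, *Cntd1*, *Spo11*, *Msh4*, *Ccnb1ip1*, *Psmc3ip*, *Mlh3* and *Mcmdc2*. None had higher values at that level, against 2.62% of all genes. The median SE of the log2 fold change was 0.13 for the members and 0.21 for all genes tested. The shares set beside all genes, here and below, are not matched for this. DESeq2, the tool the study used, passed 2 members, *Mdc1* (adjusted p = 0.01) and *Cntd1* (adjusted p = 0.014), both lower in cKO, or 5.56% of the members beside 1.41% of all genes. With replicate 1 of both genotypes left out, edgeR passed 6 members as lower (16.7%, all genes 3.86%) and 1 as higher (2.78%, all genes 0.46%). The lower ones were *Spo11*, *Psmc3ip*, *Mcmdc2*, *Mdc1*, *Msh4* and *Mlh3*, and the higher one was *Dmc1*. The samples left out in this fit are those that stood apart in the pachytene markers above. With any 1 sample left out instead, edgeR passed no member.

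The differences between genotypes were small in size. The median log2 fold change of the 36 members was -0.04, beside 0.01 for all genes tested, and the members ran from -0.77 for *Psmc3ip* to 0.35 for *Rec114*. By sign, 19 were negative and 17 positive. The median moved to 0.06 without control 3. For 35 of 36 members the 95% interval of the log2 fold change stayed within 1 in either direction, that is, within a 2-fold change, and *Psmc3ip* was the exception. For 18 it stayed within 0.5. Among all genes tested, the interval stayed within 1 for 12480 of 20187.

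**Figure D2:**
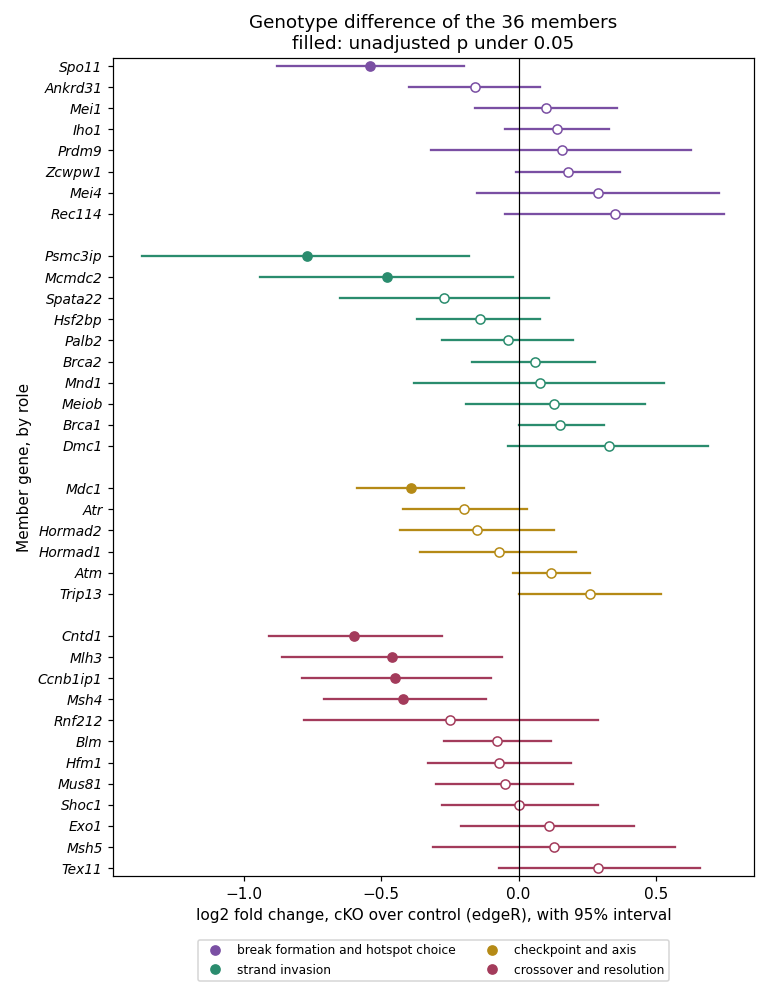
Log2 fold change of cKO over control for each member with its 95% interval from edgeR, by role group. Filled points mark the 8 members with an unadjusted p under 0.05, all on the negative side, 4 of them in the crossover group, and the intervals of 28 members cover 0.

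In 4 members every cKO sample lay below every control in normalized CPM (11.1% of members, 3.03% of all genes tested), and in 2 every cKO sample lay above every control (5.56%, against 2.47%). The first were *Mdc1*, *Cntd1*, *Msh4* and *Ccnb1ip1*, and the others *Iho1* and *Brca1*. On TPM, *Msh4* overlapped, and *Rec114* joined those that lay above. The promoters of these 6 genes are shown because they are the members whose samples separated by genotype. Each is the 250 bases before the transcription start from RefSeq on GRCm38.p6, written 5′ to 3′ along the gene's own strand, at chr17:35841248-35841497 (+) for *Mdc1*, chr11:101278953-101279202 (+) for *Cntd1*, chr3:153904892-153905141 (-) for *Msh4*, chr14:50795729-50795978 (-) for *Ccnb1ip1*, chr9:108431827-108432076 (-) for *Iho1* and chr11:101551956-101552205 (-) for *Brca1*. Capitals mark a MYB motif (AACNGNC on either strand) or an E2F motif (TTTCCCGC or TTTGGCGC on either strand), which overlap near the *Mdc1* start.
*Mdc1*: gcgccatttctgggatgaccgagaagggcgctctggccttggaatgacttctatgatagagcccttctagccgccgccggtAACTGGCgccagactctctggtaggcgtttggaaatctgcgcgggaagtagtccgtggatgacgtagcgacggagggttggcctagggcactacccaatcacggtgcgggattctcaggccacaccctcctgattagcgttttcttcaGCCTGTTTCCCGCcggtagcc
*Cntd1*: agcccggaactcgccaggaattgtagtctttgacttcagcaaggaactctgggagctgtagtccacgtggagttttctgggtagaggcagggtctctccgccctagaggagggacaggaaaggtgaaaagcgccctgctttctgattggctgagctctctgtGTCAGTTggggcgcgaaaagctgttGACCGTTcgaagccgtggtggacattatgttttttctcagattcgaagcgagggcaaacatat
*Msh4*: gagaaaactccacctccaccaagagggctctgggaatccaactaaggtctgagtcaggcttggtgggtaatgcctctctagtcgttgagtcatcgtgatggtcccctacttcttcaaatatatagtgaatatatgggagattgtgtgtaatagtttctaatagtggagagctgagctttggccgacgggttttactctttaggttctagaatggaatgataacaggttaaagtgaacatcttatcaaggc
*Ccnb1ip1*: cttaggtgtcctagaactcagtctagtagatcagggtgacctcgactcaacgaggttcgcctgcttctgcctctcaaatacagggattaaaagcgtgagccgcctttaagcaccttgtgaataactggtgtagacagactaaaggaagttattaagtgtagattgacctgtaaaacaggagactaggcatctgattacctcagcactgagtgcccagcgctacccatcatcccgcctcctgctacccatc
*Iho1*: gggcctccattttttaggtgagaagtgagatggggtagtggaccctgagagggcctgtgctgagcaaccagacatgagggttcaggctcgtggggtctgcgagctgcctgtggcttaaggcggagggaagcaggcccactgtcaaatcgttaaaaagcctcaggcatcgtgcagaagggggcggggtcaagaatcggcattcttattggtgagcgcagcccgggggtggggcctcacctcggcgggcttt
*Brca1*: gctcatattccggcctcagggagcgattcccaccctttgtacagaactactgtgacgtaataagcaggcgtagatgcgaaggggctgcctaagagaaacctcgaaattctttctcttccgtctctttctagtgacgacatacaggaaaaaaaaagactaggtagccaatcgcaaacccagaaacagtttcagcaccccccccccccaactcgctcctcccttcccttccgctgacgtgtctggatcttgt

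Letters were searched in the same window for 5 motifs of factors known from spermatocytes or the cell cycle, on both strands, over 34 promoters of the 30 members that the RefSeq table holds and over 32851 promoters of all genes. The MYB motif, that of A-MYB in pachytene cells, was in 35.3% of member promoters and 27.7% of all promoters. Among the 6 genes shown, *Mdc1* held it at 2 places and *Cntd1* at 2, while these letters were not in the windows of the other 4. The E2F motif was in 8.82% of member promoters (*Brca2*, *Mdc1* and *Msh5*) and 1.3% of all. CNCCTCAG, the motif of the meiotic initiators STRA8 and MEIOSIN, was in 11.8% of member promoters (*Hfm1*, *Hormad2*, *Msh5* and *Prdm9*) and 6.42% of all. The cAMP response element TGACGTCA was in 2.94% (*Brca2*) and 1.55%, and the RFX half-site GTTGCC in 5.88% (*Rnf212* and *Trip13*) and 10.4%.

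Among the 8 genes of break formation and hotspot choice, *Spo11* was the only one at an unadjusted p under 0.05, and 6 of 8 had positive log2 fold changes (median 0.15). *Spo11* encodes the catalytic subunit that cuts the DNA and lies on chromosome 2 (172819493 to 172835369, GRCm39, forward strand). It measured 28.1, 35.3, 43.1 and 30.4 CPM in controls 1 to 4 and 20.3, 21, 23.6 and 29.1 CPM in cKO samples 1 to 4. Only cKO 4 reached into the control range, above control 1. The log2 fold change was -0.54 ± 0.16 (SE; 95% interval -0.88 to -0.20; adjusted p = 0.35). With any 1 sample removed the value stayed between -0.66 and -0.41, and the unadjusted p stayed under 0.05 in 8 of 8 such fits.

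The other 7 members of the group gave fitted differences of either sign, none at an unadjusted p under 0.05. *Iho1*, whose product joins the break machinery to the axis, had 31.7, 32.4, 33.9 and 30.7 CPM in controls and 34.9, 34.9, 37.2 and 35 CPM in cKO samples. The cKO values all lay above the controls, but the gap was narrow (log2 fold change 0.14 ± 0.09, SE; adjusted p = 0.65). *Rec114*, an accessory factor, measured 5.55 ± 0.553 CPM in controls and 7.09 ± 0.895 CPM in cKO samples (SD, n = 4), with a log2 fold change of 0.35 (interval -0.05 to 0.75), and *Mei4*, its binding partner, had 0.29 (-0.15 to 0.73). *Mei1* was at 0.10 and *Ankrd31* at -0.16, with adjusted p of 0.84 and 0.69. *Prdm9*, the methyltransferase that picks the hotspots, measured 20.6 CPM in control 1 against 31.9 to 37.5 CPM in the other controls, and 24.2 CPM in cKO 1 against 37 to 40.2 CPM in the other cKO samples. Replicate 1 was thus the low sample in each genotype, and the genotypes themselves overlapped (log2 fold change 0.16, interval -0.32 to 0.63). *Zcwpw1* had 121, 154, 148 and 136 CPM in controls and 149, 154, 176 and 156 CPM in cKO samples (0.18, interval -0.01 to 0.37).

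The 10 strand invasion genes held the widest spread of the 4 groups, from -0.77 to 0.33 (median 0.01). *Psmc3ip* encodes HOP2, which with MND1 helps DMC1 find its homolog, and lies on chromosome 11 (100981704 to 100986276, reverse strand). It measured 59.9, 30.6, 37.3 and 26.5 CPM in controls and 29.1, 20.8, 22.5 and 17.9 CPM in cKO samples. Control 1 stood far above the other controls, and cKO 1, the highest cKO sample, lay above control 4. Its log2 fold change was -0.77 ± 0.26 (SE; interval -1.37 to -0.18; adjusted p = 0.45), and without control 1 it was -0.48. *Mnd1*, its obligate partner, measured 7.24 ± 0.897 and 7.65 ± 1.83 CPM (SD, n = 4), at 0.08 (interval -0.38 to 0.53).

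*Dmc1*, the meiosis-specific recombinase and the highest of the group in TPM, had 43.2, 70.9, 75.4 and 67.8 CPM in controls and 67.2, 79.4, 88.4 and 87.4 CPM in cKO samples. In each genotype replicate 1 was the lowest, and cKO 1 alone fell within the control range. Its log2 fold change was 0.33 ± 0.16 (SE; interval -0.04 to 0.69; adjusted p = 0.60), and with both replicates numbered 1 left out it was 0.25 (adjusted p = 0.046). *Mcmdc2*, a relative of the replicative helicase that is needed for strand invasion, went the other way, with 14.5, 20, 25.9 and 20.5 CPM in controls and 9.49, 15.9, 15.5 and 17.2 CPM in cKO samples. Control 1 lay inside the cKO range, and cKO 1 was the lowest of all 8. Its log2 fold change was -0.48 ± 0.21 (SE; interval -0.94 to -0.02; adjusted p = 0.54).

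The genes that bring recombinases to the breaks had small fitted differences. *Brca1* had 74.5, 73.6, 77.3 and 71.8 CPM in controls and 88.5, 82.5, 81.9 and 78 CPM in cKO samples, and the lowest cKO sample was just above the highest control. The log2 fold change was 0.15 ± 0.07 (SE; interval -0.00 to 0.31; adjusted p = 0.56). *Brca2*, which loads the recombinases, was at 0.06 (interval -0.17 to 0.28). *Palb2*, the bridge between BRCA1 and BRCA2 and the lowest of the group in TPM, had 22.8, 21.2, 23.3 and 21.6 CPM in controls and 23, 23.2, 21.4 and 18.8 CPM in cKO samples. Its log2 fold change of -0.04 (interval -0.28 to 0.20) turned to 0.13 on TPM. *Hsf2bp*, which carries BRCA2 to meiotic breaks, was at -0.14 (interval -0.37 to 0.08). The single-strand binding partners *Meiob* and *Spata22* were at 0.13 (interval -0.19 to 0.46) and -0.27 (interval -0.65 to 0.11).

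Of the 6 checkpoint and axis genes, *Mdc1* had the smallest p of all 36 members. MDC1 spreads phosphorylated H2AX along the unsynapsed sex chromosomes in pachytene, and its gene lies on chromosome 17 (36152384 to 36170563, forward strand). It measured 435, 402, 439 and 349 CPM in controls 1 to 4 and 271, 315, 331 and 323 CPM in cKO samples 1 to 4. The lowest control, control 4, was above the highest cKO sample, cKO 3. The means were 406 ± 41.4 and 310 ± 26.9 CPM (SD, n = 4), and the log2 fold change was -0.39 ± 0.09 (SE; interval -0.59 to -0.20; adjusted p = 0.24 by edgeR, 0.01 by DESeq2). With any 1 sample removed it stayed between -0.45 and -0.33.

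The kinase that phosphorylates H2AX on the sex chromosomes, ATR, had 667, 526, 651 and 468 CPM in controls and 489, 502, 519 and 507 CPM in cKO samples. The cKO samples were close together (504 ± 12.6 CPM) inside the spread of controls (578 ± 96.5 CPM; SD, n = 4), and the log2 fold change of *Atr* was -0.20 (interval -0.42 to 0.03). *Atm*, the kinase that answers the first breaks and the lowest of the group in TPM, had 125, 130, 138 and 132 CPM in controls and 138, 137, 151 and 144 CPM in cKO samples (0.12, interval -0.02 to 0.26). The axis genes *Hormad1* and *Hormad2* were at -0.07 (interval -0.36 to 0.21) and -0.15 (interval -0.43 to 0.13), and without control 3 *Hormad1* was at 0.10. *Trip13*, the ATPase that strips HORMAD proteins from synapsed axes, was at 0.26 (interval -0.00 to 0.52; adjusted p = 0.57).

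In the crossover group 4 of 12 members had lower values at an unadjusted p under 0.05 (33.3%, all genes 6.28%), and in 3 of 12 every cKO sample lay below the controls (25%, all genes 3.03%). *Cntd1*, a cyclin-like regulator that limits crossover precursors to those that mature, lies on chromosome 11 (101169832 to 101187143, forward strand). It had 86, 77.8, 103 and 62.9 CPM in controls and 62.4, 48.8, 57.4 and 50.1 CPM in cKO samples, so that control 4 and cKO 1 were nearly equal. On the log2 scale the fold change was -0.60 ± 0.14 (SE; interval -0.91 to -0.28; adjusted p = 0.28 by edgeR, 0.014 by DESeq2). In replicates 2 to 4 alone it was -0.65 and did not pass (adjusted p = 0.28 by edgeR). Of its exonic length, 68.6% lies opposite exons of *Becn1* (113 TPM), an autophagy gene, and the libraries were not stranded, so reads from this stretch cannot be told apart by strand. *Becn1* itself measured 152 ± 9.16 and 145 ± 7.73 CPM (SD, n = 4; log2 fold change -0.07).

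*Msh4*, which with MSH5 forms a clamp on recombination intermediates, lies on chromosome 3 (153562786 to 153611775, reverse strand) and was the lowest of the group in TPM. It had 26.7, 30.7, 39.4 and 28.4 CPM in controls and 21, 23.7, 22.4 and 26.6 CPM in cKO samples. Control 1 and cKO 4 were nearly the same. This gave a log2 fold change of -0.42 ± 0.14 (SE; interval -0.71 to -0.12; adjusted p = 0.42). *Msh5*, whose product is found with MSH4, had 31.8 CPM in control 1 against 48.6 to 59.8 CPM in the other controls, and 40.3 CPM in cKO 1 against 48.8 to 62.6 CPM in the other cKO samples, at 0.13 (interval -0.31 to 0.57).

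*Ccnb1ip1* encodes HEI10, a ubiquitin ligase that gathers at future crossovers, and lies on chromosome 14 (51026696 to 51045263, reverse strand). It had 17.9, 12.5, 14.6 and 13.1 CPM in controls and 11.2, 10.4, 11.9 and 9.29 CPM in cKO samples, with control 2 just above cKO 3. The fitted log2 fold change was -0.45 ± 0.16 (SE; interval -0.79 to -0.10; adjusted p = 0.45), and -0.33 without control 1. *Mlh3*, a nuclease subunit that makes crossovers, lies on chromosome 12 (85281238 to 85317405, reverse strand) and had 78.3, 48.9, 57.3 and 44.7 CPM in controls and 52, 35.7, 38.9 and 40.2 CPM in cKO samples. Replicate 1 was the highest in each genotype, and cKO 1 reached into the control range. The log2 fold change was -0.46 ± 0.18 (SE; interval -0.86 to -0.06; adjusted p = 0.51), and without control 1 it was -0.27.

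The other 8 crossover genes had no unadjusted p under 0.05. *Tex11*, the one X-linked member and a scaffold of crossover intermediates, had 113, 82.2, 92.6 and 77.9 CPM in controls and 145, 95.4, 114 and 94.2 CPM in cKO samples. Replicate 1 was the highest in each genotype, and the ranges overlapped (log2 fold change 0.29 ± 0.16, SE; interval -0.07 to 0.66; adjusted p = 0.63). The helicase gene *Hfm1* was at -0.07 (interval -0.33 to 0.19), *Shoc1*, for a structure-specific DNA-binding protein, at 0.00 (-0.28 to 0.29), and *Exo1*, the exonuclease, at 0.11 (-0.21 to 0.42). *Blm*, a helicase that takes recombination intermediates apart, was at -0.08 (-0.27 to 0.12), and *Mus81*, the nuclease of a second crossover route, at -0.05 (-0.30 to 0.20). *Rnf212*, a SUMO ligase that keeps MSH4 on its sites, was at -0.25 (-0.78 to 0.29). Its counts of 86 in cKO 4 and 91 in cKO 2 were alike, but its TPM was 99.9 in cKO 4 and 13.4 in cKO 2, and on log2(TPM + 1) its difference was 0.26.

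**Figure D3:**
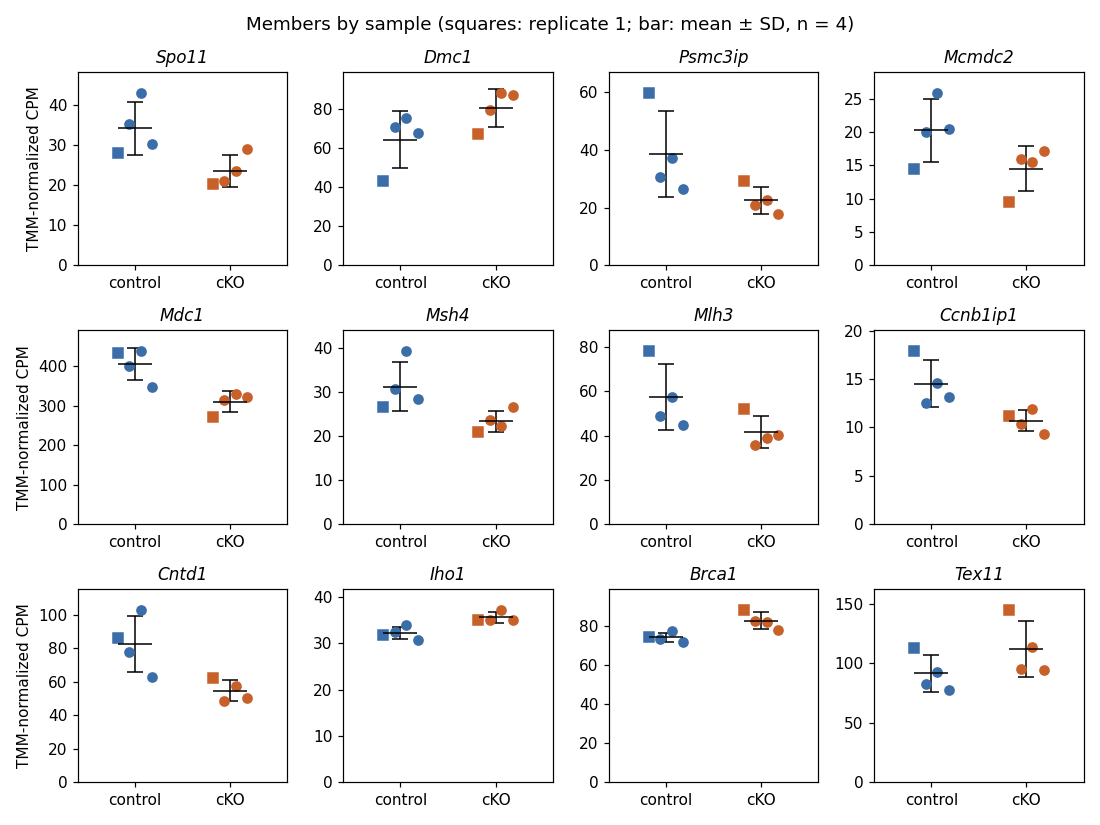
TMM-normalized CPM in each control (blue) and cKO (orange) sample for 12 members, with mean and SD (n = 4) and squares for replicate 1. The genotypes part for *Mdc1*, *Msh4*, *Ccnb1ip1*, *Cntd1*, *Iho1* and *Brca1*, and replicate 1 is the lowest sample of both genotypes for *Spo11*, *Dmc1*, *Mcmdc2* and *Msh4* and the highest of both for *Psmc3ip*, *Mlh3* and *Tex11*.

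Replicate 1 was often at the same end of the range in both genotypes. It was the lowest of 4 in both for 11 members (30.6%, beside 19.4% of all genes tested) and the highest of 4 in both for 5 (13.9%, beside 21.1%). Of the 11, *Spo11*, *Mei1*, *Prdm9* and *Zcwpw1* act in break formation, *Dmc1*, *Meiob*, *Brca2* and *Mcmdc2* in strand invasion, and *Msh4*, *Msh5* and *Shoc1* in crossover formation. The 5 were *Psmc3ip*, *Trip13*, *Mlh3*, *Tex11* and *Exo1*. *Psmc3ip* was 0.94 log2 units higher in control 1 than the mean of the other controls and 0.52 higher in cKO 1 than the mean of the other cKO samples. *Prdm9* was at -0.77 and -0.68 on the same scale. The summed level of the pachytene markers was also highest in replicate 1 of each genotype, and the part of this in the members' differences was not tested.

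**Figure D4:**
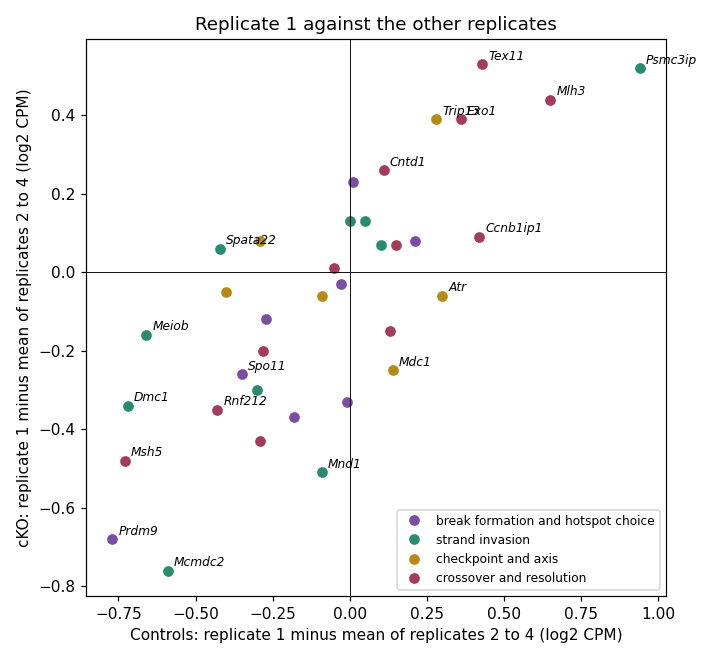
Log2 CPM of replicate 1 minus the mean of replicates 2 to 4 for each member, in controls (x axis) and in cKO samples (y axis), coloured by role. *Psmc3ip*, *Mlh3* and *Tex11* lie high on both axes and *Prdm9*, *Dmc1*, *Msh5* and *Mcmdc2* low on both, while *Mdc1* was at 0.14 in controls and -0.25 in cKO samples.

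Proteins that act as a pair can be compared within a sample through the ratio of their TPM, which does not depend on library depth. For 10 pairs of partners, of which 9 are reported, chosen after the members' values were seen, log2 ratios were compared by a two-sided exact permutation test, whose smallest p for 4 against 4 samples is 0.029. *Msh4* over *Msh5* was 0.55, 0.448, 0.461 and 0.452 in controls and 0.364, 0.405, 0.309 and 0.28 in cKO samples. All cKO ratios lay below the controls (difference in log2 ratio -0.50, exact p = 0.029, 0.095 adjusted over the 10 pairs). *Brca1* over *Bard1*, the ligase pair, was 1.62 to 1.96 in controls and 2.04 to 2.5 in cKO samples (0.34), and *Meiob* over *Spata22* was 0.725 to 0.921 and 0.934 to 1.34 (0.41). Both gave the same exact p of 0.029 and the same adjusted value, so 3 of the 9 reported pairs separated by genotype and none passed the adjustment. Of the exonic length of *Spata22*, 50.7% is shared with *Gm49340* on the same strand, which had 0.73 TPM.

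The other ratios overlapped between genotypes. *Psmc3ip* over *Mnd1* was 6.16, 2.76, 3.3 and 2.99 in controls and 3.48, 2.44, 1.72 and 1.43 in cKO samples, high in control 1 (difference -0.75, exact p = 0.14). *Spo11* over *Top6bl*, the subunits of the break-making enzyme, was 0.796 to 1.07 in controls and 0.806 to 1.07 in cKO samples (-0.06, exact p = 0.66). *Rec114* over *Mei4* differed by 0.17, *Hsf2bp* over *Brme1* by -0.05, *Atr* over *Atrip* by -0.25 and *Mus81* over *Eme1* by -0.34, with exact p from 0.11 to 0.83.

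**Figure D5:**
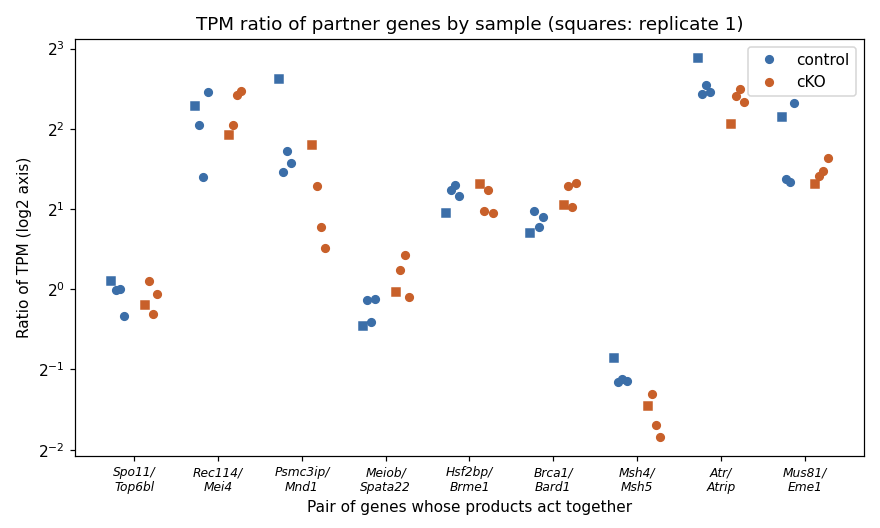
Ratio of TPM of 9 pairs of partner genes in each control (blue) and cKO (orange) sample on a log2 axis, with squares for replicate 1. The genotypes part for *Meiob*/*Spata22*, *Brca1*/*Bard1* and *Msh4*/*Msh5*, and overlap in the other 6 pairs.

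By position, the members are spread over 15 chromosomes with 5 each on chromosomes 9, 11 and 17. On chromosome 11, *Psmc3ip*, *Cntd1* and *Brca1* follow each other with gaps of 184 and 192 kb (GRCm39), and their log2 fold changes were -0.77, -0.60 and 0.15. All 36 are protein-coding, with exonic lengths from 1648 to 25108 bases. The libraries carried no strand, and some members share exonic bases with a neighbour. Of these, 38.1% of the exonic length of *Psmc3ip* lies opposite *Mlx* (17.7 ± 1.36 and 18.8 ± 1.16 CPM in controls and cKO samples; SD, n = 4) and 26.9% of that of *Rec114* opposite *Nptn* (101 ± 9.4 and 111 ± 5.36 CPM). For *Brca2* the share was 12.3%, opposite *N4bp2l1*, and for *Mcmdc2* 5.39%, opposite *Snhg6*. *Ccnb1ip1* shares 4.72% with *Parp2*, and *Mdc1* 0.794% with *Ppp1r18os*.

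Outside the 36, 70 further recombination genes were listed by role. None of them passed the edgeR test either, and their median log2 fold change was -0.02. At an unadjusted p under 0.05, 9 had lower values in cKO samples (12.9%, all genes 6.28%) and 3 higher (4.29%, all genes 2.62%). Every cKO sample lay below the controls in 7 (10%, all genes 3.03%) and above them in 3 (4.29%, all genes 2.47%). In the checkpoint list the values of *H2ax*, the histone that MDC1 binds, were 136 ± 12.1 and 112 ± 10.9 CPM (log2 fold change -0.28, adjusted p = 0.42), and those of *Rad9b*, a part of the ring-shaped checkpoint clamp, were 45.8 ± 5.23 and 36.7 ± 1.97 CPM (-0.32, adjusted p = 0.41; SD, n = 4 throughout). In both, the genotypes did not overlap, and both were lower in cKO. They were the only 2 of the 16 genes of this list at an unadjusted p under 0.05 by edgeR. The median log2 fold change of the 16 was -0.05, with 11 negative and 5 positive. In strand invasion, *Rad54b*, a DNA translocase, was at -0.41, *Helq*, a helicase, at -0.28, and *Firrm* and the helicase gene *Mcm8* at 0.23 and 0.23. In crossover resolution, *Slx4*, a scaffold for nucleases, was at -0.50, and *Rmi1*, a partner of BLM, and *Top3b*, a topoisomerase, were at -0.27 and -0.20. *Hells*, a chromatin remodeller that works with PRDM9, had 202 ± 12.5 and 243 ± 27.3 CPM (0.27), above the controls in every cKO sample.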

How the data were processed

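Non-stranded libraries of polyadenylated RNA from 4 control and 4 cKO samples were sequenced as paired ends. Per the labels and the study's methods, the authors aligned the reads to mm39 with STAR 2.7.9a and quantified genes with RSEM 1.3.3. They deposited expected counts, not normalized between samples, and TPM for 55357 genes. Of the expected counts, 6.37% were not whole, and all were rounded. Genes reaching a TPM of 1 in any sample were tested with edgeR 4.0.16 (TMM, robust quasi-likelihood F-test), with Benjamini-Hochberg adjustment, and intervals used the moderated degrees of freedom. CPM carry the TMM factors. Alternatives used DESeq2 1.42.0 and limma 3.58.1. Ratios were compared by exact permutation of 70 assignments. Positions and shares of exonic length came from the GENCODE annotation of GRCm39, and promoters from RefSeq on GRCm38.p6. The study counted reads on gene models from an Ensembl release that was not compared here, in which these shares can differ. The test was tried on simulated counts with a capped spread and no effect shared by replicate number. That trial does not cover the pattern of replicate 1. The members, the lists and the rules for naming genes were chosen with earlier results of these data known. Every member is named. Values are given by sample for members that passed any fit, had an unadjusted p under 0.05, did not overlap between genotypes, or were the highest or lowest of their role in TPM. *Becn1*, *Mlx* and *Nptn* were added after exon overlaps were seen. Counting error sets the 3-count floor. The ratio of 1 of the 10 pairs of partner genes counts in the adjustment and is not reported here.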

Additional observations from a re-analysis of the deposited data

Results flagged for a closer look

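Each member was examined for a sample far from the other 3 of its genotype, by Dixon's ratio at the 95% level, in CPM and in TPM. Of 144 such groups of 4, 6 were marked, where chance marks about 1 in 20. *Iho1* was high in cKO 3, with 37.2 CPM against a nearest value of 35. *Hsf2bp* was low in cKO 2, at 29.6 CPM (nearest 33.1) and at 36.8 TPM (nearest 40.6). *Brca2* was low in cKO 1, at 160 CPM against 195. *Spo11* was high in cKO 4, at 27 TPM against 19.9. *Rnf212* was high in cKO 4, at 99.9 TPM against 13.4, with 86 counts.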

How the results depend on the processing

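Of 720 refits of single members, 668 kept the direction and the side of the threshold, 26 passed it anew and 26, in 10 members, turned direction, none of them past the threshold. Those were *Prdm9* (-0.03 on both TPM scales, -0.00 to 0.30 without single samples, lowest without control 1), *Mnd1* (-0.03 without cKO 3, -0.02 without cKO 4, 0.20 at most without others), *Meiob* and *Brca2* (-0.01 each without control 1), *Palb2* (0.13 on both TPM scales, -0.08 to 0.02 without single samples), *Hormad1* (-0.15 to 0.10, highest without control 3), *Msh5* (-0.02 without control 1), *Rnf212* (0.26 on log2(TPM + 1), 0.25 on log2(TPM + 0.1)), *Hfm1* (-0.14 to 0.08, highest without control 3) and *Shoc1* (-0.01 with DESeq2, limma-voom, log2(TPM + 1), DESeq2 size factors and DESeq2 with the replicate block, -0.02 on log2(TPM + 0.1), -0.00 on library totals and with the replicate block in edgeR, and -0.09 to -0.02 without single samples). The cKO minus control difference in the log2 ratio of *Spo11* to *Top6bl* turned to 0.02 in replicates 2 to 4, an alternative added after the data were seen.

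The replicate block, as a paired fit, passed 9 members in edgeR (*Spo11*, *Psmc3ip*, *Mcmdc2*, *Mdc1*, *Msh4*, *Mlh3* and *Cntd1* lower, *Dmc1* and *Tex11* higher) and 8 in DESeq2. It passed 5 and 4 of the other recombination genes, and 1464 and 1223 of all genes, 7.25% and 6.06%. In these paired fits 15 and 12 members had an unadjusted p under 0.05, and the share of all genes at that level is not given here. The numbers do not pair the samples by any label. Deviations of same-numbered samples correlated at 0.53, 0.14, 0.04 and 0.20 for replicates 1 to 4, on average 0.23 against -0.07 for other pairs, and 4 of 8 samples matched their own number best. In replicates 2 to 4 alone, 7 members, 3 other recombination genes and 845 genes in all passed, 13 members had an unadjusted p under 0.05 (36.1%, all genes 14.1%), and 9 lay lower (25%, all genes 10.5%) and 7 higher (19.4%, all genes 8.37%) in every cKO sample.

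All genes passing numbered 302 with DESeq2, 18 with upper-quartile normalization, 17 on library totals, 35 without a filter, and 0 with limma-voom, both limma-trend fits and filterByExpr. Upper-quartile normalization put 5 members higher in every cKO sample. Leaving out single samples gave 0 to 32 genes passing, with 4 to 7 members lower and 2 to 5 higher in every cKO sample. For these settings and for upper-quartile normalization, the share of all genes that lay apart is not given here. These member counts therefore cannot be set against all genes. The median SE of the members' log2 fold changes was 0.13, which limits what 4 samples a genotype can show.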
